A study of Mus musculus with 2 samples.

Results

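Long non-coding RNAs labelled as nuclear were followed through all cell classes of dorsal hippocampal CA1 in single-nucleus libraries from control and epilepsy conditions. The genes were chosen by symbol: 8 were named, and 6 of them (Meg3, Mirg, Malat1, Neat1, Miat and Snhg11) matched a row among the 30431 genes counted; Rian and Snhg14 are not analysed here. Both groups were male C57BL/6J mice of 6 to 7 weeks at treatment that carried Calb1::Cre together with a Tdtomato reporter, so both hold the same alleles, and Cre is under the control of Calb1, a gene of superficial CA1 cells. In the epilepsy group kainate, an agonist of excitatory glutamate receptors, was injected into the peritoneum at 5 mg/kg every hour until seizures had lasted over 30 min, and diazepam at 4 mg/kg followed 1 h later to stop them. The control group received vehicle, given in the labels as saline or DMSO. Nuclei were taken 12 weeks after the seizures and sorted; the labels name no marker for the sort. The design names 2 mice per group and there was 1 library per condition, but whether a library holds nuclei of 1 mouse or of both is not stated. No difference below therefore has a replicate check, and every interval given (95%, exact Poisson for a single sum, exact conditional binomial for a ratio, Clopper-Pearson for a share) covers counting error only. Since only nuclei were sequenced, the label "nuclear" itself could not be compared with cytoplasm.

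Long non-coding RNAs are transcripts that are spliced or processed like messenger RNA but act without being translated, and several of the most abundant ones stay in the nucleus. Malat1 accumulates in nuclear speckles, where splicing factors are stored, and Neat1 is the scaffold on which paraspeckles are built. Miat, also called Gomafu, is a neuronal RNA that binds splicing factors. Meg3 and Mirg lie in the imprinted Dlk1-Dio3 domain and are expressed from the maternal chromosome, Mirg as a host of microRNAs. Snhg11 hosts small nucleolar RNAs and is known as a transcript of neurons.

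In the GRCm38 build and the GENCODE M21 annotation, Meg3 spans chr12:109541001-109571726 on the plus strand and Mirg lies downstream of it on the same strand at chr12:109729764-109749460. Malat1 (chr19:5795690-5802672) and Neat1 (chr19:5824708-5845478) are neighbours on the minus strand of chromosome 19. Miat is at chr5:112213228-112229395 on the minus strand and Snhg11 at chr2:158375638-158386145 on the plus strand. The annotation lists Snhg11 as protein-coding and the other members as lincRNA. Overlapping genes on the opposite strand with reads of their own were Gm26906 in Meg3 (80 control and 48 epilepsy UMIs in pyramidal-like nuclei) and Gm26953 in Miat (36 and 21 UMIs), both far below their partners.

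The 3′ ends of Malat1 and Neat1 are shown first, because the assay tags RNA near its 3′ end through a stretch of A, and these RNAs are known for ends that are not made in the usual way. As background, the long forms of both are cut by RNase P upstream of a tRNA-like structure, and the A-rich stretch encoded in the genome folds into a triple helix that protects the end. The short form of Neat1 ends in an ordinary poly(A) tail. The 3 stretches are written 5′ to 3′ from GENCODE M21 transcripts, all on the minus strand; capitals mark the longest run of A in the Malat1-201 and Neat1-201 stretches and the polyadenylation signal AATAAA in Neat1-202.
Malat1-201, chr19:5795918-5796049: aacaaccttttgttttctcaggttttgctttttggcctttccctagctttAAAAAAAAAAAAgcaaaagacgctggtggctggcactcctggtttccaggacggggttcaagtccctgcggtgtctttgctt
Neat1-202, chr19:5842307-5842366: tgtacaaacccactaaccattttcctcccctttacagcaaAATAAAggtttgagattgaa
Neat1-201, chr19:5824708-5824767: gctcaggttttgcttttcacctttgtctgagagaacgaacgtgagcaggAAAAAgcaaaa
The Malat1 stretch holds bases 6624 to 6755 of a transcript of 6983 bases, with a run of 12 A. The Neat1 stretches are the last 60 bases of the short transcript (3004 bases) and of the long one (20771 bases), whose run near the end has 5 A. Over all annotated transcripts of each member the longest run of A was 16 bases in Meg3, 12 in Malat1, 9 in Snhg11, 7 in Neat1, 5 in Mirg and 4 in Miat. Where along each gene the reads fell is not given by the counts.

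Mirg and Meg3 carry microRNA genes on their own strand, and these are the sequences that give Mirg its name. By position in RefSeq (GRCm38.p6), 14 microRNA genes with 26 mature sequences lie inside Mirg, of which 8 mature sequences lie within an annotated exon, and 2 genes with 3 mature sequences lie inside Meg3, all 3 in exons. The 26 sequences of Mirg have 25 distinct seeds, the bases 2 to 8 that pair with targets. The pair with a shared seed, GGUUGCC, is shown first, then 3 exonic microRNAs of Mirg and both arms of the exonic Mir770 of Meg3. Capitals mark the seed.
mmu-miR-453, chr12:109735669-109735692: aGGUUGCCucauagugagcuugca
mmu-miR-496a-5p, chr12:109739132-109739152: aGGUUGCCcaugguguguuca
mmu-miR-134-5p, chr12:109734145-109734166: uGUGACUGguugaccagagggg
mmu-miR-377-3p, chr12:109740553-109740574: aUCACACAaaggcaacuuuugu
mmu-miR-410-3p, chr12:109743764-109743784: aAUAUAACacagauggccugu
mmu-miR-770-5p, chr12:109563710-109563731: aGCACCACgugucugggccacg
mmu-miR-770-3p, chr12:109563744-109563765: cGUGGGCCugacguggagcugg
As background, miR-134 is a microRNA of neuronal dendrites. None of these microRNAs was measured: the UMIs of Mirg and Meg3 count their host transcripts.

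The control library held 3661 nuclei with 11858162 UMIs (unique molecular identifiers, one per captured RNA molecule; median 3447 per nucleus) and the epilepsy library 3078 nuclei with 7112131 UMIs (median 2443). After the nuclei with the highest doublet scores were removed, 3551 control and 2985 epilepsy nuclei remained, and 16 barcodes occurred in both libraries. Clusters were named from marker genes as CA1 pyramidal-like (2836 control and 2338 epilepsy nuclei), CA2/CA3 pyramidal-like (41 and 64), dentate granule-like (153 and 14), interneuron-like (197 and 143), Cajal-Retzius-like (8 and 6), oligodendrocyte-like (227 and 314), astrocyte-like (29 and 31) and microglia-like (36 and 37), with 24 and 38 nuclei of a precursor mixture left unnamed. Of the 6 members only Neat1 was among the genes used for clustering, so its level by class is partly built into the classes. The labels give the tissue as the CA1 pyramidal cell layer, and all 10 pyramidal markers were detected in the pyramidal-like class of the control library.

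The 6 RNAs made up 8.54% (8.53 to 8.56) of all UMIs of pyramidal-like nuclei in the control library and 8.01% (7.99 to 8.03) in the epilepsy library. Malat1 alone gave 76.4% of these UMIs in control and 73.2% in epilepsy. The share was 6.08% and 5.94% in dentate granule-like nuclei, the lowest of the named classes in both libraries, and reached 9.31% and 10.8% in astrocyte-like nuclei. In oligodendrocyte-like nuclei it was 8.36% and 8.34%. Every nucleus kept in either library held at least 1 UMI of Malat1. Ranked by summed UMIs over all genes, Malat1 was 1st and Meg3 2nd in pyramidal-like, interneuron-like and oligodendrocyte-like nuclei of both libraries. In oligodendrocyte-like nuclei most Meg3 UMIs came from the nuclei with the most UMIs, as given below.

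Levels are given as UMIs per 1000000 UMIs of a class (CPM). They were also divided by kilobases of merged exon. On that scale Malat1 stood at 9349 CPM per kb in pyramidal-like nuclei of the control library, Meg3 at 813 and Snhg11 at 588. Miat stood at 34.1, Mirg at 14.4 and Neat1 at 0.505. In the epilepsy library the levels on that scale were 8398, 858, 632, 36.1, 23.9 and 1.08 in the same order of genes. The order of the members was thus the same in both libraries. Because the assay tags 3′ ends, a division by length lowers long genes such as Neat1 more than the number of molecules would. On this scale Malat1 ranked 1st of all genes with a length in both libraries, Meg3 12th in control and 11th in epilepsy, and Snhg11 19th and 17th.

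**Figure D1:**
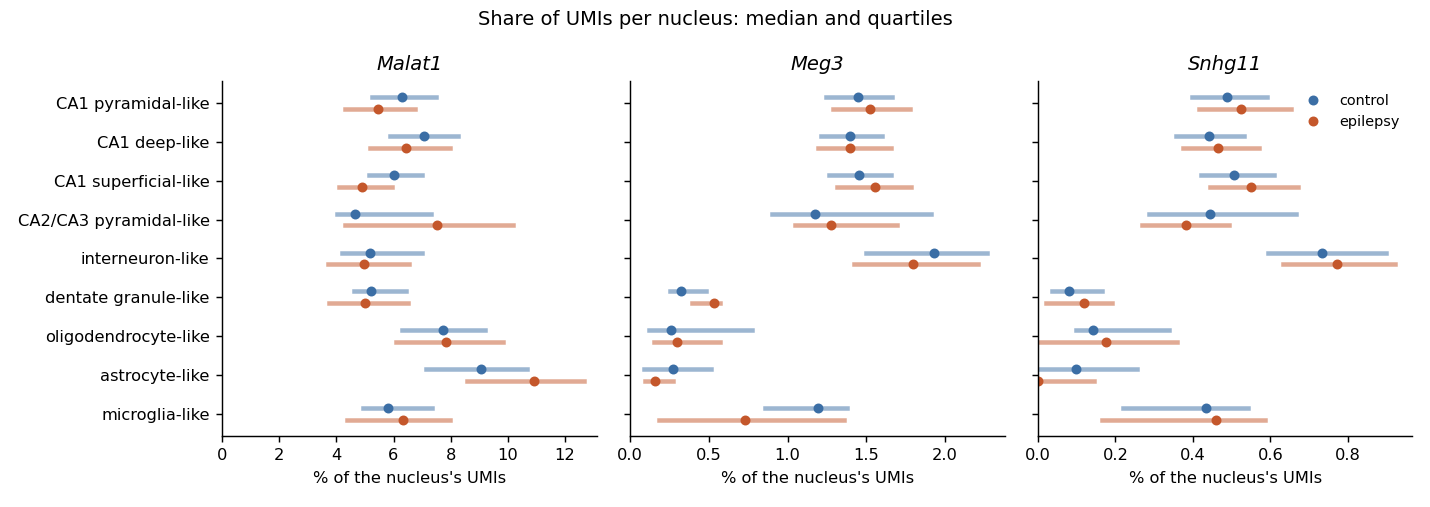
Share of the UMIs of each nucleus given by Malat1, Meg3 and Snhg11 (x axis, percent; 1 panel per RNA) in 9 cell groups of the control and the epilepsy library; points are medians over nuclei and lines run between the quartiles. The median Malat1 share in pyramidal-like nuclei was 6.30% in control and 5.45% in epilepsy, and the median Meg3 share in oligodendrocyte-like nuclei, 0.261% and 0.296%, lay far below the 1.45% and 1.52% of pyramidal-like nuclei.

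A ratio is the log2 of the epilepsy level over the control level in the same class. In pyramidal-like nuclei 2 of the 6 members, Mirg and Neat1, were at least 1.5-fold higher in the epilepsy library and none was lower by that much. Over all 11079 genes with at least 50 UMIs in these nuclei, 13.9% were past 1.5-fold in either direction and 8.78% were past it on the higher side. The share past it in either direction was 21.2% with a minimum of 20 UMIs and 5.88% with a minimum of 200, which both Mirg and Neat1 exceed. The median log2 ratio was 0.09 over the members and 0.00 over all genes. Of the calls past 1.5-fold in this class 63.3% were higher in the epilepsy library, and 48.0% when the libraries were scaled by TMM (trimmed mean of M values) factors, which lowered every ratio of the class by 0.09.

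In the deep-like sublayer 1 of 5 measured members, Mirg, was past 1.5-fold, against 13.6% of all genes there. In the superficial-like sublayer 2 of 6, Mirg and Neat1, were past it on the higher side, against 12.3% of all genes in either direction. No member was past it in CA2/CA3 pyramidal-like nuclei (4 measured, 22.8% of all genes), interneuron-like nuclei (5 measured, 13% of all genes), oligodendrocyte-like nuclei (5 measured, 12.4%) or microglia-like nuclei (3 measured, 23.9%). With TMM factors the share of calls that were higher went from 56.5% to 39.0% in superficial-like nuclei, from 47.1% to 62.1% in CA2/CA3 pyramidal-like nuclei, from 42.5% to 30.7% in interneuron-like nuclei and from 38.1% to 11.7% in microglia-like nuclei. The 2 superficial-like members, Mirg at 0.62 and Neat1 at 0.66 on the log2 scale, both fell short of 1.5-fold under those factors.

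**Figure D2:**
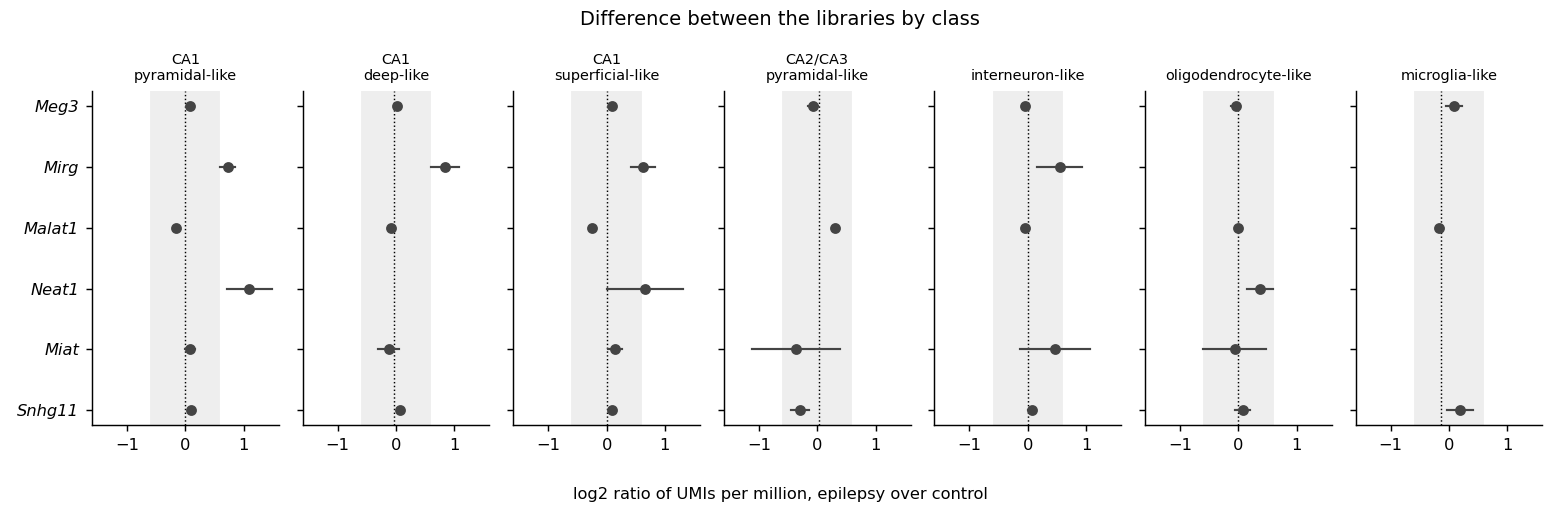
Log2 ratio of CPM, epilepsy over control, for each member with at least 50 UMIs in a class (x axis; 1 panel per class), with 95% counting intervals as lines; the grey band is a difference of under 1.5-fold and the dotted line the median over all genes. Mirg lay right of the band in pyramidal-like nuclei at 0.73, and Malat1 lay left of 0 there at -0.15 but right of it in CA2/CA3 pyramidal-like nuclei at 0.31.

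Malat1, the speckle RNA, was lower in pyramidal-like nuclei of the epilepsy library, the only member below 0 when scaled to all UMIs; with TMM factors Meg3 and Miat lay just below 0 as well. It gave 634506 UMIs (65282 CPM) in control and 341796 UMIs (58642 CPM) in epilepsy, a log2 ratio of -0.15 (-0.16 to -0.15). Under TMM scaling the ratio was -0.24, and it was negative under all 11 alternatives. The median share per nucleus was 6.30% of UMIs in control (quartiles 5.23% and 7.47%) and 5.45% in epilepsy (4.31% and 6.76%), so the ranges over single nuclei overlapped widely.

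The Malat1 share moved with the UMI total of the nucleus. When pyramidal-like nuclei of each library were put in 4 bins of near equal size by UMI total, its level went from 59346 through 61704 and 66428 to 69244 CPM in control, from the lowest to the highest bin. In the epilepsy library the same bins had 52599, 52661, 57037 and 66202 CPM. Both libraries thus had their highest Malat1 level in the nuclei with the most UMIs, and at each rank the control bin had the higher level. Bins of the same rank differed in depth, as they were made within each library. The top epilepsy bin, at 66202 CPM, held nuclei of 3042 to 7657 UMIs. Control bins of 2829 to 3574 and 3575 to 4133 UMIs had 61704 and 66428 CPM. Epilepsy bins of 1951 to 2567 and 2567 to 3040 UMIs had 52661 and 57037 CPM. The control bin of 714 to 2829 UMIs had 59346 CPM. Depth was lower in the epilepsy library (median 2567 against 3574.5 UMIs in this class), and its part in the difference was not tested beyond this; at 1000 UMIs per nucleus the levels were 63966 and 56909 CPM.

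Across classes the Malat1 level was highest in astrocyte-like nuclei, at 84245 CPM in control and 104652 CPM in epilepsy. Oligodendrocyte-like nuclei followed in control with 71095 CPM, then CA2/CA3 pyramidal-like nuclei with 67944 CPM, whose interval overlapped that of the Cajal-Retzius-like nuclei. In the epilepsy library CA2/CA3 pyramidal-like nuclei were second with 84202 CPM and oligodendrocyte-like nuclei next with 70739 CPM. These middle places depended on the weighting. With equal weight per nucleus, epilepsy levels were 75933 CPM in CA2/CA3 pyramidal-like and 81073 CPM in oligodendrocyte-like nuclei. Control levels were then 58599 CPM in CA2/CA3 and 64325 CPM in CA1 pyramidal-like nuclei, beside 67944 and 65282 CPM from the sums. Dentate granule-like nuclei had the lowest level in both, at 55722 CPM (54882 to 56571) and 52536 CPM (48630 to 56673). In both libraries that interval overlapped the one of the class above, and the epilepsy value rests on 14 nuclei. Astrocyte-like nuclei thus stood at the top of the order in both libraries, but the lowest place was not resolved.

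The Malat1 ratio was -0.05 (-0.08 to -0.03) in interneuron-like nuclei and -0.17 (-0.23 to -0.10) in microglia-like nuclei, where it was 0.03 with equal weight per nucleus. The microglia-like nuclei had median depths of 3002 UMIs in control and 858 in epilepsy. The ratio was -0.01 (-0.03 to 0.02) in oligodendrocyte-like nuclei. In CA2/CA3 pyramidal-like nuclei it was 0.31 (0.27 to 0.35), from 9532 UMIs in 41 nuclei to 16745 UMIs in 64 nuclei. That class therefore stood on the opposite side of 0 from the CA1 pyramidal-like nuclei. The depth difference was also opposite. The median was 2860 UMIs in control and 3125.5 in epilepsy here, against 3574.5 and 2567 in CA1 pyramidal-like nuclei. The part of depth in the sign was not tested. The median Malat1 share per nucleus in the CA2/CA3 class was 4.65% in control (quartiles 4.03% and 7.31%) and 7.53% in epilepsy (4.30% and 10.2%). Single nuclei of the 2 libraries thus overlapped.

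The 2 sublayers of CA1 pyramidal cells differed in Malat1 within each library. Deep-like nuclei had 72354 CPM and superficial-like nuclei 61585 CPM in control, a log2 ratio of superficial over deep of -0.23 (-0.24 to -0.22). In epilepsy the levels were 68187 and 51818 CPM and the ratio -0.40 (-0.41 to -0.38). The median over all genes in that comparison was 0.06 in control and 0.10 in epilepsy. Malat1 was thus higher in the deep-like sublayer of both libraries. When all pyramidal-like nuclei were split at the median of the marker score instead, the ratios were -0.12 and -0.16. The ratio of epilepsy over control was -0.09 in deep-like and -0.25 in superficial-like nuclei.

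Neat1, the paraspeckle scaffold, had its highest level in oligodendrocyte-like nuclei of both libraries. These held 314 UMIs (912 CPM, 814 to 1019) in control and 365 UMIs (1181 CPM, 1063 to 1309) in epilepsy, a log2 ratio of 0.37 (0.15 to 0.60). The sign turned with at least 500 detected genes per nucleus, to -0.61, and with thinning to 1000 UMIs, to -0.26, settings that leave mostly the nuclei with high UMI totals. By UMIs Neat1 ranked 118th of all genes in this class in control and 93rd in epilepsy, but 7728th and 5327th in pyramidal-like nuclei. Astrocyte-like nuclei came next in control with 70.1 CPM on 3 UMIs, and in epilepsy the unnamed precursor mixture did with 258 CPM, followed by microglia-like nuclei with 236 CPM on 13 UMIs and astrocyte-like nuclei with 180 CPM on 5 UMIs. All intervals between neighbours below the oligodendrocyte-like class overlapped.

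In pyramidal-like nuclei Neat1 was sparse: 102 UMIs (10.5 CPM, 8.56 to 12.7) in control and 131 UMIs (22.5 CPM, 18.8 to 26.7) in epilepsy, a 2.14-fold higher level with a log2 ratio of 1.10 (0.71 to 1.49). It was seen in 3.56% of control and 5.13% of epilepsy nuclei at median depths of 3574.5 and 2567 UMIs, and after thinning to 1000 UMIs in 1.24% and 2.36%. Interneuron-like nuclei, at median depths of 3293 and 2157 UMIs, had 2.54% and 3.50%, from 6 and 5 UMIs. The pyramidal share was thus of the same low order as that in another neuron class.

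Oligodendrocyte RNA was read beside Neat1 in these nuclei. All 7 oligodendrocyte markers were detected in pyramidal-like nuclei, with a summed level of 82.3 CPM in control and 130 CPM in epilepsy, against 6325 and 6936 CPM in oligodendrocyte-like nuclei. In the 665 control and 603 epilepsy pyramidal-like nuclei with a UMI of such a marker, the Neat1 level was 11.3 (7.44 to 16.4) and 35.9 CPM (27.0 to 46.8). In the 2171 and 1735 nuclei without one it was 10.2 (8.05 to 12.8) and 17.8 CPM (14.1 to 22.3), a log2 ratio of 0.80. Nuclei with and without a marker thus overlapped in their intervals in control but not in epilepsy. Among nuclei without a marker the intervals of the libraries did not overlap. By UMI total, Neat1 in the epilepsy library was 53.3 CPM in the lowest bin and 26.9, 12.2 and 15.6 CPM in the others, and the oligodendrocyte markers were at 285, 124, 103 and 95.6 CPM. In control the 4 bins had 15.5, 9.98, 8.42 and 10.5 CPM of Neat1 beside 121, 81.2, 78.4 and 70.6 CPM of the markers. The high level was thus in the epilepsy nuclei with the fewest UMIs; the part of oligodendrocyte RNA in it was not tested beyond these values.

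Of 8 clusters within the pyramidal-like nuclei, 1 had Neat1 intervals that did not overlap between the libraries. It is led by Tor1b and Neat1 itself, holds 211 control and 205 epilepsy nuclei and has a low median of 1492 and 1131 UMIs. There Neat1 had 7 UMIs (19.7 CPM, 7.92 to 40.6) in control and 32 UMIs (126 CPM, 86.3 to 178) in epilepsy. Since Neat1 helped to form that cluster, its level in it is a description. Without the clusters of low UMI totals the log2 ratio over pyramidal-like nuclei was 0.79, still past 1.5-fold.

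**Figure D3:**
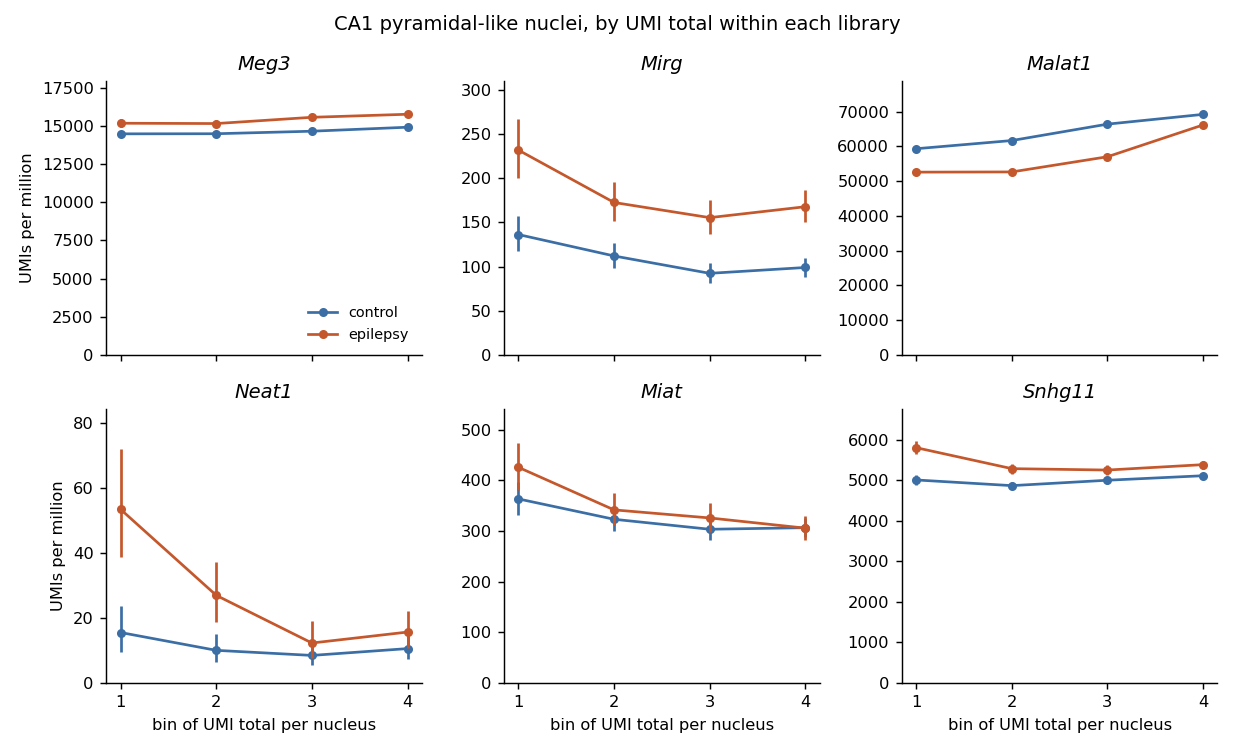
Level of each member in pyramidal-like nuclei (y axis, CPM) in 4 bins of near equal size by the UMI total of the nucleus (x axis, lowest to highest) for the control and the epilepsy library, with 95% counting intervals. Mirg was higher in the epilepsy library in every bin, Neat1 reached 53.3 CPM in the lowest epilepsy bin only, and Malat1 had its highest level in the top bin of both libraries.

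The proteins that share bodies with these RNAs were read from lists, which were chosen with earlier results of these data known. Of 17 listed paraspeckle proteins 16 were measured in pyramidal-like nuclei and 0 were past 1.5-fold, against 13.9% of all genes in either direction. All 16 had at least 200 UMIs, a minimum at which the share of all genes was lower, as given above. The count is therefore no result about the list. Their median log2 ratio was 0.02 beside 0.00 over all genes. Among them Pspc1, a core paraspeckle protein, had 48.4 CPM in control and 32.3 CPM in epilepsy, just under the threshold at -0.58 (-0.84 to -0.34). Of 18 nuclear speckle proteins, all measured and all with at least 200 UMIs, 0 were higher and 1 was lower past 1.5-fold. The same shares of all genes apply, and this count too is no result about the list. The lower one was Srrm2, a structural protein of speckles, with 931 CPM in control and 601 CPM in epilepsy. Its log2 ratio was -0.63 (-0.69 to -0.58). The median of the speckle list was -0.10.

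In pyramidal-like nuclei Miat ranked 438th by UMIs in control and 423rd in epilepsy among 30330 genes. It had 3084 UMIs (317 CPM, 306 to 329) in control and 1958 UMIs (336 CPM, 321 to 351) in epilepsy, and the log2 ratio of 0.08 had an interval that reached 0 (-0.00 to 0.16). The sign turned under TMM scaling and under thinning, where the ratio was -0.02. At least 1 UMI was found in 62.6% of control and 54.9% of epilepsy nuclei, but in 27.9% and 27.4% after thinning to 1000 UMIs. In interneuron-like nuclei the thinned shares were 7.57% and 12.6%. As with Neat1, the level was highest in the lowest bin of UMI totals.

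Interneuron-like nuclei had less Miat than pyramidal-like nuclei, at 89.5 CPM (68.1 to 115) in control and 124 CPM (89.1 to 168) in epilepsy. CA2/CA3 pyramidal-like nuclei had 214 and 166 CPM, oligodendrocyte-like nuclei 186 and 178 CPM and dentate granule-like nuclei 196 and 314 CPM, the last on 4 UMIs in epilepsy. Intervals of neighbours in the order overlapped throughout, in both libraries. The part of neuronal RNA in the oligodendrocyte-like values was not tested.

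Miat and Malat1 had opposite orders in the sublayers. Miat stood at 273 CPM in deep-like and 336 CPM in superficial-like nuclei of the control library, a log2 ratio of superficial over deep of 0.30 (0.17 to 0.43), and at 250.0 and 372 CPM in the epilepsy library, a ratio of 0.57 (0.40 to 0.75). Both lay above the all-gene medians of 0.06 and 0.10, and a split at the median marker score gave 0.15 and 0.24. Between libraries the ratio was 0.15 (0.03 to 0.27) in superficial-like and -0.13 (-0.31 to 0.05) in deep-like nuclei. Of 4 listed splicing factors that bind Miat, 3 were measured in pyramidal-like nuclei. Of these 3, 0 were past 1.5-fold, against 13.9% of all genes in either direction, and the count is no result about the list. Celf3, a neuronal splicing regulator, had 113 CPM in control and 127 CPM in epilepsy.

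Meg3, the maternally expressed RNA at the start of the imprinted array, had 142897 UMIs (14702 CPM) in pyramidal-like nuclei of the control library and 90410 UMIs (15512 CPM) in the epilepsy library. The log2 ratio was 0.08 (0.07 to 0.09), and -0.01 with TMM factors, so its sign depended on the scaling. The level hardly varied with depth, from 14504 to 14938 CPM over the 4 bins in control and from 15179 to 15789 CPM in epilepsy. Deep-like nuclei had 14153 and 14409 CPM and superficial-like nuclei 14836 and 15811 CPM. The largest Meg3 differences were between cell classes, not between libraries or sublayers.

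Interneuron-like nuclei had the highest Meg3 level, 19115 CPM (18783 to 19452) in control and 18511 CPM (18050 to 18981) in epilepsy. That level was not shared by all 3 interneuron-like clusters. The clusters led by Rnf144b and Adarb2 had 19439 and 22107 CPM in control and 19221 and 21304 CPM in epilepsy. The cluster led by B020031H02Rik had 15215 CPM (14627 to 15821) in control and 13596 CPM (12793 to 14437) in epilepsy, beside 14702 and 15512 CPM in CA1 pyramidal-like nuclei. Pyramidal-like nuclei of CA1 followed, then those of CA2/CA3 with 14028 and 13300 CPM; in control these 2 classes overlapped in their intervals and in epilepsy they did not. Dentate granule-like nuclei had 3725 and 4947 CPM, well below the other neurons. Per nucleus the median share of Meg3 in interneuron-like nuclei was 1.93% of UMIs in control and 1.80% in epilepsy. The ratio between libraries in that class was -0.05 (-0.09 to -0.00).

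Among glia, the Meg3 level differed between classes and, in oligodendrocyte-like nuclei, between bins of UMI total. Oligodendrocyte-like nuclei had 8185 CPM in control and 7910 CPM in epilepsy, but the 4 bins by UMI total had 2165, 2239, 2370 and 12530 CPM in control. In epilepsy the bins had 2319, 2963, 2908 and 12235 CPM. Most of the Meg3 UMIs in this class thus came from the nuclei with the most UMIs. Markers of pyramidal cells went from 481, 527 and 750 CPM in the lower bins to 2938 CPM in the top bin of control, and from 726, 714 and 828 to 2605 CPM in epilepsy, beside 3214 and 3347 CPM in pyramidal-like nuclei. Neat1 went the other way, from 1420, 1756 and 2046 CPM to 277 CPM in the top bin of control, and from 2155, 1881 and 1984 to 494 CPM in epilepsy. Oligodendrocyte markers stood at 12078 CPM in the lowest bin and 2026 CPM in the top bin of control, and at 10354 and 3598 CPM in epilepsy.

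Microglia-like nuclei had 12184 and 12904 CPM of Meg3. This class held pyramidal markers at 2742 CPM in control and 2217 CPM in epilepsy, more than its own 7 microglia markers, all detected, at 1515 and 2563 CPM, so its label rests on these markers beside neuronal RNA. Astrocyte-like nuclei had 6288 CPM in control and 1804 CPM in epilepsy, with pyramidal markers at 1636 and 469 CPM. How much of the glial Meg3 came from neuronal RNA was not tested beyond these values.

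**Figure D4:**
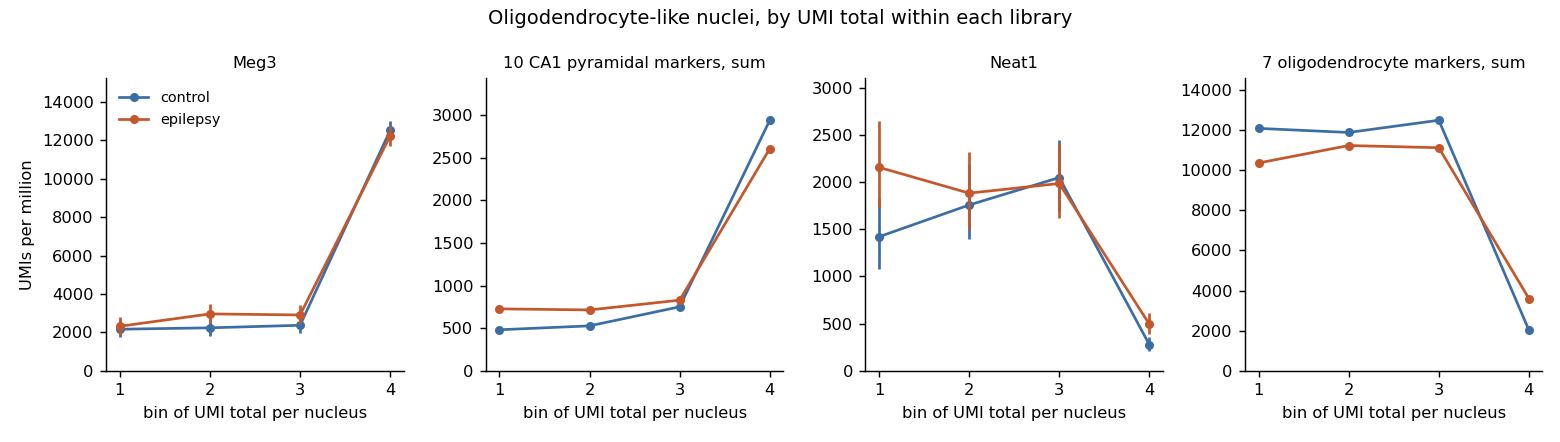
Levels in oligodendrocyte-like nuclei (y axis, CPM) of Meg3, Neat1 and the summed pyramidal and oligodendrocyte markers in 4 bins of near equal size by UMI total (x axis, lowest to highest), for the control and the epilepsy library, with 95% counting intervals for the RNAs. In the top bin Meg3 stood at 12530 CPM in control and 12235 CPM in epilepsy, beside at most 2963 CPM in any lower bin, while Neat1 was at its lowest there, 277 and 494 CPM.

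Mirg, the microRNA host at the far end of the array, was higher in the epilepsy library throughout the CA1 pyramidal-like nuclei. Pyramidal-like nuclei held 1024 UMIs (105 CPM, 99.0 to 112) in control and 1016 UMIs (174 CPM, 164 to 185) in epilepsy, a 1.65-fold higher level. The log2 ratio was 0.73 (0.60 to 0.85) and stayed past 1.5-fold under all 11 alternatives, from 0.64 with TMM factors to 0.76 without the clusters of low UMI totals. In rank by UMIs Mirg went from 1456th in control to 837th in epilepsy.

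The Mirg difference was found in every depth bin. From the lowest to the highest UMI total the control bins had 136, 112, 92.3 and 98.9 CPM and the epilepsy bins 232, 173, 155 and 168 CPM. No interval of a control bin overlapped that of the epilepsy bin of the same rank. Single nuclei held at most 4 Mirg UMIs in either library. At least 1 was seen in 29.3% of control and 33.3% of epilepsy nuclei, and after thinning to 1000 UMIs in 11.1% (9.92 to 12.3) of 2746 and 16.3% (14.7 to 17.9) of 2208 nuclei, 90 and 130 shallower nuclei being left out. Oligodendrocyte-like nuclei, at median depths of 848 and 615 UMIs, had a Mirg UMI in 6.61% and 6.69% of nuclei. After thinning the shares were 7.79% (2.91 to 16.2) of 77 and 14.8% (6.62 to 27.1) of 54 nuclei. These intervals overlapped, and 150 control and 260 epilepsy nuclei of this class, the shallower ones, were left out.

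Within the pyramidal-like nuclei the level was higher in the epilepsy library in all 8 clusters, and the intervals did not overlap in 6 of them. The cluster led by Necab1, a superficial-like cluster, had 96.7 CPM in control and 157 CPM in epilepsy, and the deep-like cluster led by Socs2 had 110 and 190.1 CPM. A cluster led by immediate early genes (Btg2, Fos, Nr4a3) had 108 and 196 CPM. The intervals overlapped in the clusters of low UMI totals: the cluster led by Tor1b and Neat1 had the highest control level, 217 CPM (171 to 271), beside 237 CPM (181 to 305) in epilepsy, and the smallest cluster held 2 and 1 UMIs. Neat1 was higher in the epilepsy library in 7 of the 8 clusters, on at most 32 UMIs per cluster and library, with intervals apart in 1. Mirg and Neat1 were not compared by a test. Snhg11 was also higher in all 8 clusters, with intervals apart in 6, and Meg3 in all 8, with intervals apart in 4. Miat was higher in 5, with intervals apart in 1. Malat1 was higher in 2, and lower with intervals apart in 6. The clusters are parts of the same 2 libraries and are not replicates. By sublayer Mirg went from 103 to 184 CPM in deep-like nuclei, a log2 ratio of 0.84 (0.59 to 1.08), and from 96.9 to 149 CPM in superficial-like nuclei, a ratio of 0.62 (0.41 to 0.84); the intervals of the 2 ratios overlapped, and their difference was not tested.

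The Mirg level was near the same in nuclei with and without oligodendrocyte RNA. In pyramidal-like nuclei with such a marker Mirg stood at 103 CPM in control and 162 CPM in epilepsy, and in nuclei without one at 106 and 179 CPM. All 7 interneuron markers together had 54.6 CPM in control and 81.7 CPM in epilepsy in the pyramidal-like class, beside 10895 and 9722 CPM in interneuron-like nuclei; their part in the Mirg difference was not tested.

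Interneuron-like nuclei had the highest Mirg level of all classes, 203 CPM (170.3 to 241) on 134 UMIs in control and 297 CPM (241 to 361) on 98 UMIs in epilepsy. The log2 ratio was 0.55 (0.15 to 0.93), a 1.46-fold higher level, just short of 1.5-fold. After thinning, 18.4% of control and 23.7% of epilepsy nuclei of this class had a Mirg UMI. CA2/CA3 pyramidal-like nuclei had 23 UMIs (164 CPM, 104 to 246) in control and 20 UMIs (101 CPM, 61.4 to 155) in epilepsy, too few for a ratio under the minimum of 50 UMIs. Dentate granule-like nuclei held 15 UMIs (49.8 CPM) in control and 0 in epilepsy, where 3 counts would give 236 CPM, so no difference was detectable there at this depth. Neighbours in the order of classes overlapped in their intervals in both libraries.

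**Figure D5:**
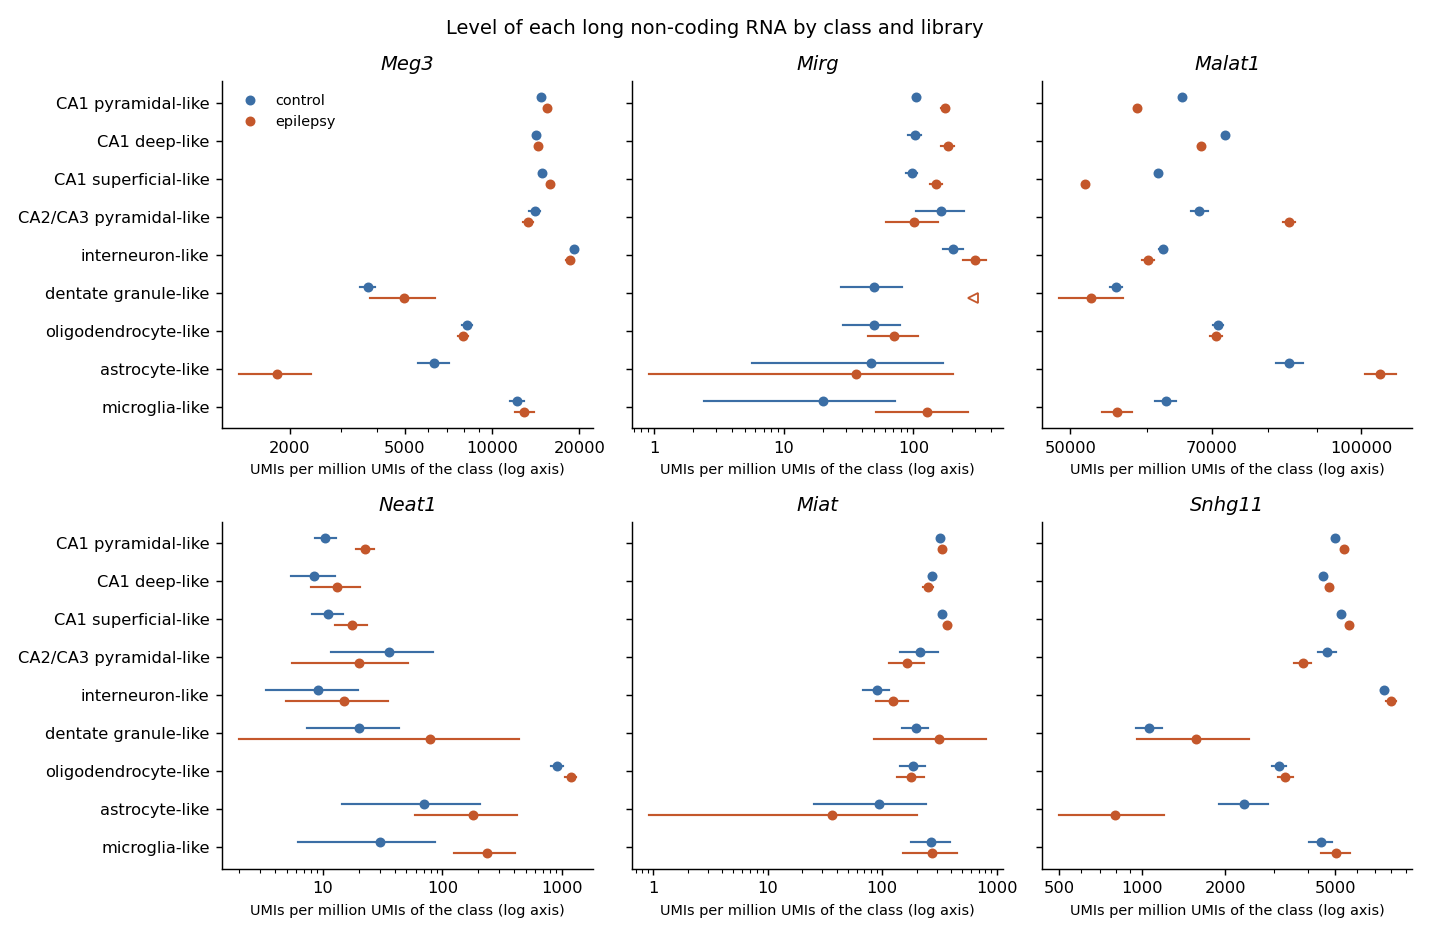
Level of each member (x axis, CPM, log scale) in 9 cell groups of the control and the epilepsy library, with 95% counting intervals as lines; an open triangle marks the upper limit where no UMI was found. Neat1 peaked in oligodendrocyte-like nuclei at 912 and 1181 CPM, and Meg3, Snhg11 and Mirg had their highest levels in interneuron-like nuclei.

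Set against Meg3 of the same array, Mirg had 7.17 UMIs per 1000 Meg3 UMIs (6.73 to 7.62) in pyramidal-like nuclei of the control library and 11.2 (10.6 to 12.0) in the epilepsy library. This ratio within a library does not depend on the scaling between libraries. It was 7.27 and 12.8 in deep-like nuclei, 6.53 and 9.45 in superficial-like nuclei and 10.6 and 16.02 in interneuron-like nuclei. In CA2/CA3 pyramidal-like nuclei it went the other way, from 11.7 (7.39 to 17.6) to 7.56 (4.61 to 11.7), on 23 and 20 Mirg UMIs with overlapping intervals. In CA1 pyramidal-like and interneuron-like nuclei the 2 RNAs of the array thus did not differ between libraries by the same factor.

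Other transcripts between Meg3 and Mirg, chosen after their values were seen, were few and mixed. B830012L14Rik, a non-coding gene on the plus strand at chr12:109695586-109702587, had 297 UMIs in control and 205 in epilepsy, a log2 ratio of 0.20 (-0.06 to 0.46). Gm26945, at chr12:109640341-109642351 on the same strand, had 54 and 14 UMIs, a ratio of -1.21 (-2.17 to -0.34). Rtl1, the paternally expressed gene on the opposite strand, had 20 and 21 UMIs. Of 10 genes listed for the imprinted domain and its flanks 9 matched, and 4 were measured beside the members. Of these 4, 0 were past 1.5-fold, against 13.9% of all genes in either direction, and the count is no result about the domain. Their median was 0.24. Begain had 18.6 CPM in control and 21.8 CPM in epilepsy, and Wdr25 11.2 and 14.4 CPM. Ppp2r5c, a phosphatase subunit, had 211 and 221 CPM, and Dync1h1, the heavy chain of dynein, 145 and 172 CPM. Only the interval of Dync1h1 lay above 0, at 0.25 (0.13 to 0.37).

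Snhg11, the snoRNA host, had 48720 UMIs (5013 CPM) in pyramidal-like nuclei of the control library and 31406 UMIs (5388 CPM) in the epilepsy library. The log2 ratio was 0.10 (0.08 to 0.12) and 0.02 with TMM factors. Its median share was 0.488% of the UMIs of a nucleus in control and 0.525% in epilepsy, and it was found in 99.8% and 99.7% of nuclei. Per 1000 Meg3 UMIs there were 341 of Snhg11 in control and 347 in epilepsy, so these RNAs kept nearly the same ratio.

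Across classes Snhg11 followed the order of Meg3 in most places. Interneuron-like nuclei had the most, 7544 CPM (7336 to 7757) in control and 7972 CPM (7671 to 8283) in epilepsy, and the ratio there was 0.08 (0.01 to 0.15). CA2/CA3 pyramidal-like nuclei had 4676 CPM in control and 3817 CPM in epilepsy, a ratio of -0.29 (-0.45 to -0.14). Oligodendrocyte-like nuclei had 3129 and 3295 CPM and dentate granule-like nuclei 1059 and 1571 CPM. In oligodendrocyte-like nuclei the median share per nucleus was only 0.141% in control and 0.177% in epilepsy. There were 382 and 417 Snhg11 UMIs per 1000 Meg3 UMIs there. The part of neuronal RNA in these levels was not tested. In the sublayers superficial-like nuclei had the higher level in both libraries, with log2 ratios over deep-like nuclei of 0.21 (0.18 to 0.25) and 0.24 (0.20 to 0.29).

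Other long non-coding RNAs were read from a list in the same nuclei. Of 40 listed, 26 matched and 20 were measured in pyramidal-like nuclei, of which 2 were higher and 1 was lower past 1.5-fold. That count is near the 13.9% of all genes past it in either direction, and is no result about the list; the median log2 ratio was -0.03 beside 0.09 for the members and 0.00 for all genes. Airn, the imprinted antisense RNA of Igf2r, had 19.4 CPM in control and 33.6 CPM in epilepsy, a ratio of 0.79 (0.49 to 1.09). Snhg12, a snoRNA host, had 3.70 and 6.52 CPM on 36 and 38 UMIs. Tug1 had 13.2 CPM in control and 5.83 CPM in epilepsy, a ratio of -1.17 (-1.77 to -0.62). In the region of Snhg14, the Prader-Willi and Angelman domain, 7 of 14 listed genes were measured, with a median of -0.10. Of these 7, 0 were past 1.5-fold, against 13.9% of all genes in either direction. The count is no result about the region. Gabra5 and Gabrg3, which encode GABA-A receptor subunits, had lower values in the epilepsy library, Gabra5 with 196 and 159 CPM and Gabrg3 with 698 and 582 CPM. Ube3a, the ubiquitin ligase whose paternal copy Snhg14 silences in neurons, had 596 and 566 CPM.

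As signs of RNA quality, 8 mitochondrial genes measured had a median log2 ratio of -0.27, with 1 lower past 1.5-fold, and 71 ribosomal protein genes a median of -0.04, with 3 higher and 2 lower, beside 13.9% of all genes in either direction. Their part in the members' ratios was not tested.

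The genes whose pattern was most like that of each member were taken by Pearson correlation of log2(CPM + 10) over 10 columns, 5 classes in each of the 2 libraries, among 4671 genes. These columns share libraries and free RNA, so the values are a description. Genes near to Neat1 were Mbp (0.98), which encodes a myelin protein, and Dock1 (0.98). Meg3 was nearest to Nrxn3 (0.95), a synaptic adhesion gene, Prkar1b (0.93) and Plcb1 (0.93). Snhg11 was nearest to Rab3c (0.96), a vesicle GTPase, Sntg1 (0.95) and Rgs7bp (0.94). Mirg was nearest to Ccnd2 (0.95), a cyclin, Cnnm1 (0.94) and Epb41l1 (0.93). Miat was nearest to Calm2 (0.98), a calmodulin gene, Wwc1 (0.97) and Kctd1 (0.96), and Malat1 to Lrp1b (0.86), Spns2 (0.85) and Ppp2r5c (0.82). Between members r was 0.92 for Meg3 and Snhg11, 0.70 for Meg3 and Mirg and -0.90 for Meg3 and Neat1.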

How the data were processed

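Single-nucleus RNA was measured in 1 control and 1 epilepsy library (10x 3′ v2 chemistry, 15000 sorted nuclei loaded each, 75 bp paired reads, per the labels' protocols). The authors deposited raw UMI counts per gene and nucleus; FastQC and Cell Ranger 2.2.0 with GRCm38 (mm10) were used per the submitters' processing notes. The annotation, the counting of introns and of strand, and the selection of barcodes are not given in the sources used here.

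Nuclei with at least 200 genes and under 5% mitochondrial UMIs were kept (0 removed). Scrublet, run in scanpy 1.11.5 (Python 3.11.15), marked only 4 nuclei in each library (0.109% and 0.130%), so the 3% with the highest score were removed (110 control, 93 epilepsy). Counts scaled to 10000 per nucleus, 2000 variable genes, 30 principal components and leidenalg 0.10.2 at resolution 1.0 gave the clusters, which were named from listed markers (3 markers at 20 CPM and 2-fold); pyramidal nuclei were clustered again for sublayers by Calb1 and Ndst4. The thresholds for naming were set after clusters had been seen. Pyramidal-like nuclei of no sublayer are counted in that class only.

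Counts were summed by class and library. Ratios needed 30 nuclei in each library and 50 UMIs in both together; intervals were computed in scipy 1.17.1 and tested on simulated data. TMM factors came from edgeR 4.0.16 (R 4.3.3). The 30330 gene identifiers found in GENCODE M21 took positions and exon lengths from it. Members and lists were chosen with earlier results of these data known. All matched members are named, with the 3 genes most like each (at least 500 UMIs, predicted gene models left out; 1 of them is not reported here), genes of a list past 1.5-fold with an interval beyond 0, and a few others named as examples after their values were seen. A planned ratio of Rian to Meg3 was not made. The ribosomal list leaves out the Rps6k kinases. Alternatives covered the denominator, TMM scaling, equal weight per nucleus, thinning to 1000 UMIs, at least 500 detected genes, doublets kept, resolutions 0.5 and 2.0, minimums of 20 and 200 UMIs and a median split of sublayers; 4 more were chosen after seeing the data.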

Additional observations from a re-analysis of the deposited data

Results flagged for a closer look

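Some members differed between the libraries in opposite directions in separate classes, with counting intervals on either side of 0; with 1 library per condition the difference was not tested. The log2 ratio of Malat1, epilepsy over control, was 0.31 in CA2/CA3 pyramidal-like nuclei and -0.15 in CA1 pyramidal-like, -0.052 in interneuron-like and -0.17 in microglia-like nuclei, the last turning to 0.03 with equal weight per nucleus. Snhg11 had 0.10 in CA1 pyramidal-like and 0.080 in interneuron-like nuclei but -0.29 in CA2/CA3 pyramidal-like nuclei. Meg3 had 0.077 in CA1 pyramidal-like and -0.046 in interneuron-like nuclei, and with TMM factors the former was -0.01. The CA2/CA3 pyramidal-like class rests on 41 control and 64 epilepsy nuclei. Its median depth was 2860 UMIs in control and 3125.5 in epilepsy, against 3574.5 and 2567 in CA1 pyramidal-like nuclei. In microglia-like nuclei the median depth was 3002 UMIs in control and 858 in epilepsy. The part of depth in these signs was not tested.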

How the results depend on the processing

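In pyramidal-like nuclei the log2 ratios of Mirg (0.64 to 0.76) and Neat1 (0.79 to 1.43) were positive and past 1.5-fold under all 11 alternatives, 3 of them chosen after seeing the data. Counts of members past 1.5-fold moved as follows. On the higher side in superficial-like nuclei the count of 2 became 0 with TMM factors and 1 with equal weight per nucleus, resolution 2.0, doublets kept and thinning. In interneuron-like nuclei the count of 0 became 2 at resolution 2.0, and 1 with thinning and, as an alternative added later, without the bin of lowest UMI totals. On the lower side the count of 0 became 1 in CA2/CA3 pyramidal-like nuclei with equal weight, and 1 in oligodendrocyte-like nuclei with at least 500 detected genes and with thinning. The causes were not tested. The other 117 of 128 such counts kept within 1.5 times. Of 322 ratios under an alternative 264 stayed inside the counting interval. TMM factors turned the sign of Meg3 and Miat in pyramidal-like nuclei, of Meg3 in deep-like and CA2/CA3 pyramidal-like nuclei, of Malat1 in oligodendrocyte-like nuclei and of Meg3 and Snhg11 in microglia-like nuclei. Fewer than 30 nuclei in a library, and so no value, were left for CA2/CA3 pyramidal-like nuclei at resolution 2.0, with doublets kept and with the 500-gene minimum. The same held for microglia-like nuclei with thinning, with the 500-gene minimum and in 3 of the added alternatives. The share of all genes past 1.5-fold in pyramidal-like nuclei went from 13.9% to 21.2% with a minimum of 20 UMIs and to 5.88% with 200. Neat1 in neurons and Mirg outside CA1 pyramidal-like and interneuron-like nuclei are limited by depth, and no difference has a replicate check. No paired analysis was possible because there is 1 library per condition.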
